A study of Salvia miltiorrhiza with 5 samples.

Results

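The miRNAs of root and stem, the axial organs of *Salvia miltiorrhiza*, were compared directly with each other. All miRNA sequences in the deposited table with at least 10 reads in the root and stem libraries together were taken, and reads were also summed per family, which is the number after miR in a miRNA name. This gave 70 of 241 distinct sequences and 33 of 71 families. The series holds 1 small RNA library each of root, stem, leaf and flower, and 1 degradome library, which records cut ends of mRNAs, from a mixture of the 4 tissues. *S. miltiorrhiza* (danshen) is a medicinal sage whose dried root holds the tanshinones. All libraries came from plants grown in an experimental field for 8 months and collected at the stage labelled Florescence, with no genotype or treatment given, and no source used here says whether a library held 1 plant or several. With 1 library per tissue there is no replicate check, so every difference below is a difference between the root library and the stem library.

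Plant miRNAs are cut from hairpin precursors as a duplex of a 5′ and a 3′ arm, of which usually 1 arm is loaded into an ARGONAUTE protein. The loaded miRNA pairs along nearly its whole length with target mRNAs, many of them of transcription factors, and the mRNA is cut or its translation repressed. Many of the families compared here act, in Arabidopsis and other plants, on meristems and lateral organs, vascular patterning, auxin response, phase change, nutrient use or the small RNA machinery itself. The less conserved families are not covered by this description.

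The table held 499434 reads in root and 380306 in stem. The authors' normalized count is the reads of a library times 1 factor, 0.547 for root and 0.715 for stem, and a ratio below is the normalized count in root over that in stem. Its 95% interval is an exact interval of the reads of both libraries and covers counting error only, since there is 1 library per tissue. It is exact for whole reads only, and reads that the authors divided among entries were entered unrounded. PCR reads are not independent molecules, so even the counting error can be larger than the interval shows. A sequence or family is called higher in a tissue at a ratio of at least 2 in its favour with an interval that excludes 1. In bulk tissue, fewer cells that make a miRNA and less miRNA per cell cannot be told apart. The table lists no mRNA, so the tissue labels were not checked against marker genes. The compared sequences held 99.97% of the root and 99.96% of the stem table reads.

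The contrasts that stood apart are carried by a few short sequences. The miR171 and miR164 sequences are shown because both families were far higher in root, and the miR393 and miR6173 sequences because they were the families most in favour of stem. The miR396 sequences are shown because members with the same seed differed in ratio. Each sequence is written 5′ to 3′ as DNA letters, as in the table, with bases 2 to 8, the seed, in capitals.
lus-miR171h_L-1R+1: tGAGCCGAaccaatatcactc
ptc-miR171j_L-1R+1_1ss10TC: gAGCCGAAccaatatcactc
osa-miR171b: tGATTGAGccgtgccaatatc
csi-miR164: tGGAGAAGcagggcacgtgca
lus-miR164a_R-1: tGGAGAAGcagggcacgtgc
zma-miR164c-3p_2ss7CT16TC: cATGTGTCcttcttccccatc
gma-miR393a_1ss21CT: tCCAAAGGgatcgcattgatt
gma-miR393a_R+1_1ss21CT: tCCAAAGGgatcgcattgattt
hbr-miR6173_L+1: tAGCCGTAaacgatggatact
gma-miR396a-5p: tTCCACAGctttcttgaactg
csi-miR396a_1ss21GT: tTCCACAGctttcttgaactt
mtr-miR396b-3p_L-1_1ss12CT: tTCAATAAagttgtgggaag
csi-miR396c_1ss10TG: tTCAAGAAagctgtgggaag

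Names carry the species of the matched miRBase entry, L and R mark bases lost or gained at the left or right end, and ss marks substitutions against that entry. The sequence lus-miR171h_L-1R+1 contains ptc-miR171j_L-1R+1_1ss10TC, which lacks its first base. Aligned with its first base at the fifth base of osa-miR171b, it differs from osa-miR171b by A8T and A9G over 17 shared bases, where positions are counted from 1 at the 5′ end of lus-miR171h_L-1R+1 and the second letter is the base of osa-miR171b. The sequence csi-miR396a_1ss21GT differs from gma-miR396a-5p by T21G alone, counted from the 5′ end of csi-miR396a_1ss21GT, so their seeds are the same.

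With the authors' factors, as many sequences were higher in root as in stem. This balance depends on the scaling, since 12 were higher in root and 22 in stem as a share of the reads outside miR166, described below. Of the 70 sequences, 18 (25.7%) were called higher in root, 18 (25.7%) were called higher in stem and 34 were neither. The ratio was above 1 for 35 and below 1 for 35, with a median of 1.01. The median size of the difference was 1.14 on the log2 scale, 29 sequences lay within 2-fold, and 9 in root and 7 in stem reached at least 4-fold. The interval included 1 for 21 sequences, for which a difference was not detectable at this depth, and for 5 of these the ratio itself was at least 2-fold. The 18 sequences higher in root held 7.30% of the root table reads and 2.02% of those of stem. The 18 higher in stem held 1.23% of the root reads and 2.84% of the stem reads.

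**Figure D1:**
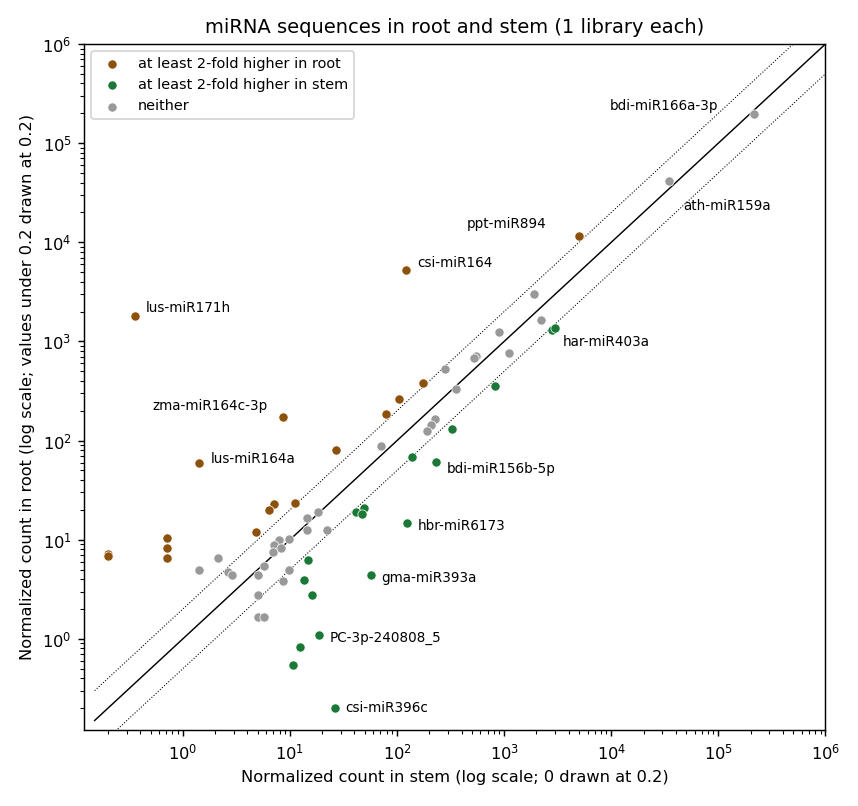
Normalized count in root (vertical, log scale) against stem (horizontal, log scale) for the 70 compared sequences, 1 library each. The solid line marks equal values and the dotted lines 2-fold. lus-miR171h and csi-miR164 lie far above the line among abundant sequences, and the most abundant sequence, bdi-miR166a-3p, lies close to it.

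The most abundant miRNAs were largely shared. Of 12 sequences in either list of the 10 most abundant, 8 were in both, and the lists held 97.9% of the root and 98.4% of the stem table reads. bdi-miR166a-3p, of the family that acts on class III HD-ZIP genes of vascular and leaf patterning, led both lists. It held 72.7% of the root reads (95% Wilson interval of the share 72.5% to 72.8%) and 79.2% of the stem reads (79.1% to 79.3%). ath-miR159a_R-1, of the family that acts on GAMYB genes, followed with 15.3% of the root and 12.7% of the stem reads, and ppt-miR894_R+1 was the third in both. csi-miR164 and lus-miR171h_L-1R+1 ranked 4 and 6 in root and were not among the 10 in stem. In their place the stem list held gma-miR168a and mtr-miR396b-3p_L-1_1ss12CT.

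Of the 33 families, 7 (21.2%) were higher in root, 7 (21.2%) were higher in stem and 19 were neither. The median ratio was 0.923, and 2 families in each direction reached at least 4-fold, miR171 and miR164 in root and miR6173 and miR393 in stem. Because miR166 took 72.8% of the root and 79.3% of the stem reads, the other families were also scaled to the reads outside miR166, 135844 in root and 78770 in stem, which lowered every log2 ratio by 0.40. On that scale 3 families were higher in root and 9 in stem, and 12 sequences were higher in root and 22 in stem. With the median family ratio set to 1, 8 families were higher in root and 5 in stem. The largest shift of the 4 scalings was 0.40 on the log2 scale, which is less than the 2-fold limit of a call. No called family or sequence could therefore change direction. Among the others, miR159, miR160, miR477, miR5139 and miR6478 lay above 1 with the authors' factors and below 1 as a share of the reads outside miR166. The reads of miR5139 are part of those of rgl-miR5139_L-1, which the authors divided between miR5139 and miR1511. On that share the undivided sequence had a ratio of 1.06 (0.989 to 1.136). miR6300 crossed 1 with the median set to 1.

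**Figure D2:**
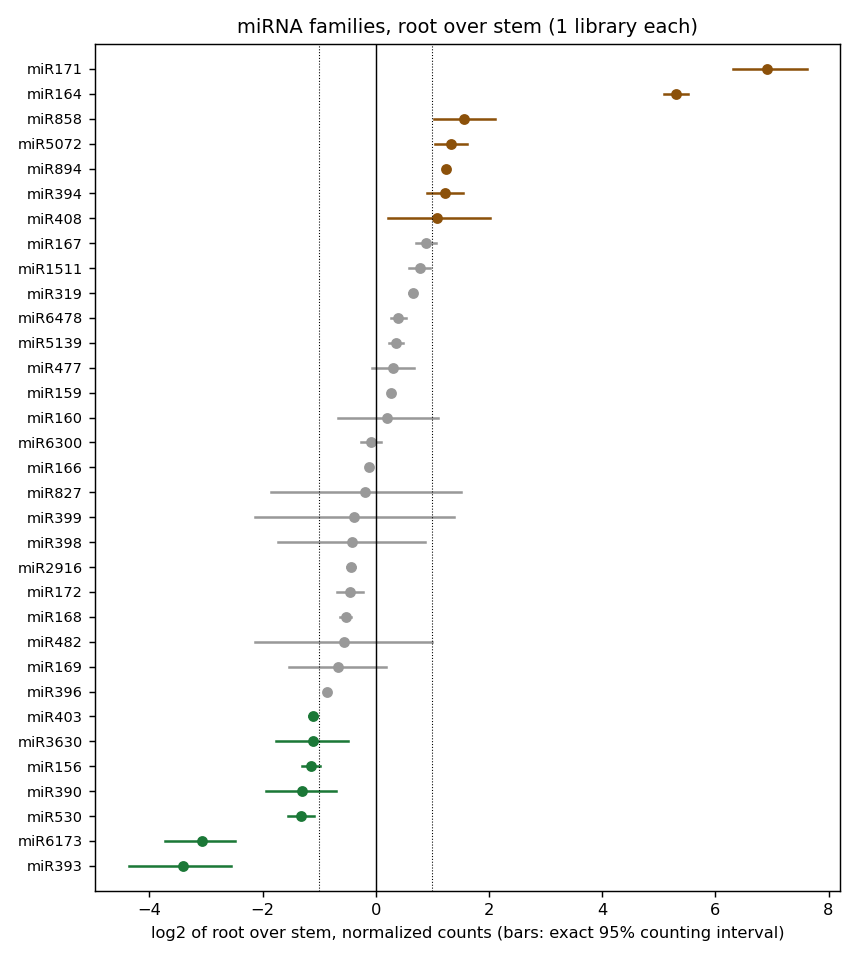
log2 of the root over stem ratio of the 33 compared families, from the highest ratio at the top to the lowest, with exact 95% intervals of the counts as bars. Brown marks families higher in root, green those higher in stem and grey neither. miR171 and miR164 stand apart at the root end and miR393 and miR6173 at the stem end, and the other 29 families lie between a ratio of 0.401 for miR530 and 2.94 for miR858.

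Of the 13 families listed for meristem, root and shoot development, 12 were compared, of which 3 were higher in root, 2 in stem and 7 neither, beside 21.2% each way over all 33 families. The median log2 ratio of the list was 0.24, beside -0.12 over all 33. The list spans both ends of the ranking, from miR171 to miR393.

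miR171, a family that acts on GRAS genes, had 3350 reads in root and 21.2 in stem, a ratio of 121 (95% interval 79.3 to 196). Nearly all of its root reads belonged to 1 sequence, since lus-miR171h_L-1R+1 had 3319 reads, or 1816 normalized counts, in root and 0.5 of a read in stem. The lower bound of its ratio was 543, and with less than 1 read in stem the upper bound is not informative. ptc-miR171j_L-1R+1_1ss10TC, the form without the first base, had 12.5 reads in root and 0 in stem, which is at least 3.19-fold higher in root when the 0 is taken to allow 3 reads, and the lower bound of its exact interval was 2.23. osa-miR171b went the other way, with 11.5 reads in root and 20.7 in stem and a ratio of 0.426 (0.188 to 0.918). The ratio of lus-miR171h_L-1R+1 over that of osa-miR171b was at least 764, the lower bound of an exact 95% interval of the ratio of ratios, which no scaling of the libraries can change. The seeds of lus-miR171h_L-1R+1 and osa-miR171b differ, since the sequences start 4 bases apart. Whether the 2 sequences act on the same GRAS genes was not tested.

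miR164, which acts on NAC genes of the CUC group that set organ boundaries and on NAC1 of lateral roots in Arabidopsis, had 9970 reads in root and 194 in stem, with a ratio of 39.4 (34.1 to 45.6). All 3 compared members were higher in root. csi-miR164 had 9543 reads in root and 171 in stem (ratio 42.7, interval 36.7 to 50.01). The same sequence without its last base, lus-miR164a_R-1, had 108 and 2 reads in root and stem (ratio 41.4, interval 11.2 to 346). The opposite arm, zma-miR164c-3p_2ss7CT16TC, had 313 reads in root and 12 in stem (ratio 19.97, interval 11.3 to 39.1). The 5′ arm thus exceeded the 3′ arm in its ratio by 2.14 times (1.07 to 3.89), though both arms were high in root.

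miR394, which acts on an F-box gene of the shoot meristem in Arabidopsis, had 335 reads in root and 110 in stem (ratio 2.33, interval 1.87 to 2.92). As a share of the reads outside miR166 its ratio was 1.77. The other families of this list with more in root stayed under 2-fold. miR167, which acts on auxin response factors, had 967 reads in root and 400.4 in stem (ratio 1.85, interval 1.64 to 2.08). miR319, which acts on TCP genes, had 5466 and 2668 reads in root and stem (ratio 1.57, interval 1.498 to 1.64). The ratio was 1.21 for miR159 and 1.15 for miR160, and the interval of miR160, from 30 reads in root and 20 in stem, was 0.631 to 2.13.

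miR393, which acts on the TIR1 and AFB auxin receptors, was the family lowest in root relative to stem, with 13 reads in root and 105 in stem and a ratio of 0.0948 (0.0489 to 0.169). Both members agreed in direction. gma-miR393a_R+1_1ss21CT had 8 reads in root and 79.5 in stem (ratio 0.0771, interval 0.0322 to 0.159). gma-miR393a_1ss21CT, which is 1 base shorter at its 3′ end, had 5 reads in root and 22.5 in stem (ratio 0.170, interval 0.0504 to 0.459). The ratio of their ratios was 2.21 with an interval of 0.526 to 8.77, so these reads do not tell the lengths apart.

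miR390, which triggers the tasiRNAs against auxin response factors, had 35.5 reads in root and 67.2 in stem, a ratio of 0.405 (0.262 to 0.617). miR169, which acts on NF-YA genes, had 23 reads in root and 27.8 in stem, and its interval of 0.348 to 1.14 included 1. miR166 as a whole differed little, with 363591 reads in root and 301535 in stem (ratio 0.923, interval 0.919 to 0.928).

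miR396, which acts on growth-regulating factor genes, had 4387 reads in root and 6095 in stem, a ratio of 0.551 (0.530 to 0.573) that missed the 2-fold limit, and its members differed widely. csi-miR396a_1ss21GT had 2485 reads in root and 4148 in stem (ratio 0.459, interval 0.436 to 0.482). gma-miR396a-5p, with the same seed and another last base, had 1231 reads in root and 738 in stem (ratio 1.28, interval 1.17 to 1.401). The ratio of the first over that of the second was 0.359 (0.323 to 0.399). gma-miR396a-5p was above 1 with the authors' factors but at 0.967 as a share of the reads outside miR166.

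The 3′ arm of miR396 followed csi-miR396a_1ss21GT. mtr-miR396b-3p_L-1_1ss12CT had 654 reads in root and 1146 in stem (ratio 0.437, interval 0.397 to 0.482), and the ratio of the 5′ over the 3′ arm was 1.05 (0.941 to 1.17). csi-miR396c_1ss10TG, which differs from it by T6G and T11C, counted from the 5′ end of mtr-miR396b-3p_L-1_1ss12CT, had 0.333 of a read in root and 36.5 in stem. The upper bound of its ratio was 0.0967. The longest form, aqc-miR396b_R+3, had 9.07 reads in root and 13.7 in stem, and its interval included 1.

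The other families with several compared sequences fell into those that moved together and those that did not, and 11 families in all had at least 2. In miR156 all 6 members had less in root. In miR168 both arms had the same ratio within counting error. miR159, miR166, miR171, miR172, miR396 and miR398 had members on both sides of 1, and only miR159, miR166 and miR171 had members called in both directions. The root-called member of miR159, ptc-miR159d_L-1R-1_1ss7TC, is vvi-miR319b_R-1 of miR319 without its last base. It is counted in miR159 by its name alone, so the calls in both directions within miR159 rest on that name. The root calls of ptc-miR159d_L-1R-1_1ss7TC in miR159 and bdi-miR166e-5p in miR166 ended as a share of the reads outside miR166, that of ptc-miR159d_L-1R-1_1ss7TC also when scaled to the clean reads, so these 2 families were called in both directions on some scales only.

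**Figure D3:**
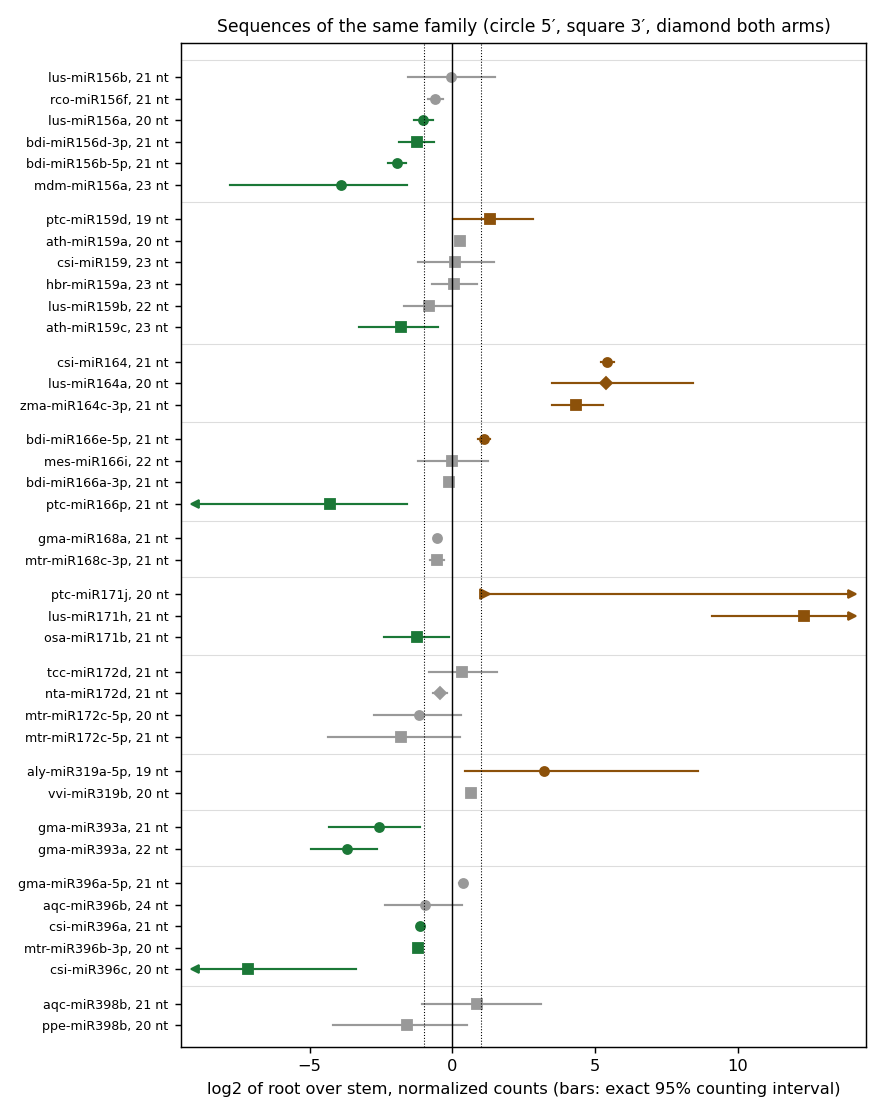
log2 of the root over stem ratio of each compared sequence in the 11 families with at least 2, with exact 95% intervals as bars. Circles are sequences listed on the 5′ arm, squares on the 3′ arm and diamonds on both. Brown marks higher in root, green higher in stem and grey neither, and arrowheads mark bounds beyond the axis or, for ptc-miR171j, a ratio with no upper limit. The 3 miR164 sequences lie at the root side and the 2 miR393 sequences at the stem side, while miR171 and miR396 span the line with the authors' factors.

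In miR166 the arms differed. These sequences are shown because a 5′ arm and a shifted 3′ form departed from the main 3′ sequence.
bdi-miR166a-3p: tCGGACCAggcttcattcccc
bdi-miR166e-5p: gGAATGTTgtctggctcgagg
ptc-miR166p_L+2R-2: tCTCGGACcaggctccattcc

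The 5′ sequence bdi-miR166e-5p had 693 reads in root and 246 in stem (ratio 2.16, interval 1.86 to 2.51), while bdi-miR166a-3p had 362860 and 301237 (ratio 0.922, interval 0.918 to 0.927). On the scale of the reads outside miR166 the ratio of bdi-miR166e-5p was 1.63 and its call ended. The ratio of the 5′ over the 3′ arm was 2.34, with an interval of 2.02 to 2.71 from the normal approximation on the log scale. ptc-miR166p_L+2R-2, which starts 2 bases earlier and differs from bdi-miR166a-3p by T13C (counted from the 5′ end of bdi-miR166a-3p), had 1 read in root and 15 in stem (ratio 0.0511, interval 0.00121 to 0.332).

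In miR319 both compared sequences had more in root. The 3′ sequence vvi-miR319b_R-1 had 5446 reads in root and 2659 in stem (ratio 1.57). The 5′ sequence aly-miR319a-5p_L-1R-1_1ss19TG had 12 reads in root and 1 in stem (ratio 9.19, interval 1.36 to 392.8). The ratio of the 5′ over the 3′ arm was 5.86 with an interval of 0.866 to 251, so the arms were not told apart. In miR159 the dominant ath-miR159a_R-1 had a ratio of 1.21. ptc-miR159d_L-1R-1_1ss7TC, counted in miR159 by its name, is vvi-miR319b_R-1 without its last base and so shares its seed TGGACTG. It differs from the other compared miR159 sequences by 2 or 3 substitutions. It had 21.9 reads in root and 6.70 in stem (ratio 2.50, interval 1.02 to 7.09). As a share of the reads outside miR166 its ratio was 1.89, with an interval that included 1. ath-miR159c_R+2_1ss20CT had 7.17 reads in root and 19 in stem (ratio 0.289, interval 0.104 to 0.713).

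Of the 4 families listed for phase change, miR156 and miR172 were compared. miR156, which represses SPL genes and keeps plants juvenile, had 525 reads in root and 885 in stem, a ratio of 0.454 (0.407 to 0.506). All 6 compared members had a ratio below 1 and 4 were called higher in stem. The 5′ members are shown because they carry most of the family's reads and differ in ratio.
rco-miR156f: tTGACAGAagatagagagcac
lus-miR156b_1ss12TG: tTGACAGAagagagagagcac
bdi-miR156b-5p_L+1_1ss20AC: tTGACAGAagagagtgagccc
lus-miR156a: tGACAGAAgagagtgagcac

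rco-miR156f had 229 reads in root and 265 in stem (ratio 0.662, interval 0.552 to 0.793). bdi-miR156b-5p_L+1_1ss20AC, which has the same seed and differs from rco-miR156f by T12G, A15T and A20C (counted from the 5′ end of rco-miR156f), had 111 reads in root and 324 in stem (ratio 0.262, interval 0.210 to 0.326). The ratio of the first over that of the second was 2.52 (1.89 to 3.37). lus-miR156a had 125 and 194 reads in root and stem (ratio 0.493), and the 3′ sequence bdi-miR156d-3p_3ss7TC8G-13GC had 38 and 69 (ratio 0.422). mdm-miR156a_L+3_1ss22AC, a longer form of bdi-miR156b-5p_L+1_1ss20AC, had 1.5 reads in root and 17.2 in stem, and lus-miR156b_1ss12TG had 10 and 8 with an interval that included 1.

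miR172, which acts on AP2-like genes, had 332 reads in root and 348 in stem (ratio 0.730, interval 0.626 to 0.851). Its main sequence, nta-miR172d, had 304 reads in root and 314 in stem (ratio 0.740, interval 0.630 to 0.869). tcc-miR172d_1ss1AT had 18 and 11 reads (ratio 1.25, interval 0.560 to 2.94), and the ratio of nta-miR172d over that of tcc-miR172d_1ss1AT was 0.591 with an interval of 0.248 to 1.35. None of the 4 compared miR172 sequences was called in either tissue.

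Of the 3 families that act on the small RNA machinery, miR168 and miR403 were compared, and both had less in root. miR403, which acts on AGO2 in Arabidopsis, had 2374 reads in root and 3913 in stem, all as har-miR403a, with a ratio of 0.465 (0.441 to 0.489). miR168, which acts on AGO1, had 1656 and 1832 reads (ratio 0.692, interval 0.647 to 0.740). Its 5′ sequence gma-miR168a had a ratio of 0.694 and its 3′ sequence mtr-miR168c-3p 0.687, and the ratio of the arms was 1.01 (0.838 to 1.22).

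Of the 8 nutrition families, 4 were compared and only miR408 was called. miR408, which acts on transcripts of copper proteins, had 42.8 reads in root and 15.4 in stem (ratio 2.12, interval 1.16 to 4.08), and as a share of the reads outside miR166 its ratio was 1.61 with an interval of 0.879 to 3.09. miR398, which acts on copper superoxide dismutase genes, had 11.7 reads in root and 12 in stem, miR827 had 8 and 7, and miR399 had 6.92 and 6.89. The last pair of families act on phosphate transport and its regulation. The intervals of these 3 families included 1, as did that of miR482, which acts on disease-resistance genes and had 8 reads in root and 9 in stem.

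miR858, which acts on MYB genes of the phenylpropanoid pathway, had 146 reads in root and 38 in stem in 1 sequence, aly-miR858-5p_L-1R+1_1ss5GA, with a ratio of 2.94 (2.05 to 4.32). It stayed above 2-fold, at 2.23, as a share of the reads outside miR166.

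Of the 13 less conserved families, 11 were compared, of which 2 were higher in root, 3 in stem and 6 neither, beside 21.2% each way over all 33 families. The median log2 ratio of the list was 0.31, beside -0.12 over all 33. The sequences of the called families are shown, with miR6173 printed above, because their 3′ ends differ.
ppt-miR894_R+1: cGTTTCACgtcgggttcacca
osa-miR5072_L-4_1ss13GA: tCCCCAGCagagtcgcca
tcc-miR530b_R+1: tGCATTTGcacctgcaccttc
vvi-miR3630-3p_L-2_1ss21AT: tGGGAATCtctctgatgctc

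miR894 had 21298 reads in root and 6921 in stem (ratio 2.36, interval 2.29 to 2.42), and miR5072 had 475 and 145 (ratio 2.51, interval 2.08 to 3.04). Both fell under 2-fold as a share of the reads outside miR166, with ratios of 1.78 and 1.90 for miR894 and miR5072. Both end in CCA, the letters that mature tRNAs carry at the 3′ end, as do the main sequences of miR5139 and miR160. The paper counts miR160 among the conserved families, and these letters alone do not identify a tRNA fragment. Of the 4 sequences that end in CCA, 2 were higher in root and none in stem, beside 16 higher in root and 18 in stem of the 66 others. Sequences that end in CCA took 4.82% of the root and 2.19% of the stem table reads, of which ppt-miR894_R+1 alone took 4.26% and 1.82%. Whether tRNA fragments have a part in these reads was not tested. Nor was a part of tRNA or ribosomal RNA fragments tested in the other less conserved families, miR6173 and miR2916 among them.

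miR6173 had 27 reads in root and 174 in stem, a ratio of 0.119 (0.0761 to 0.179). miR530 had 239 and 456 reads in root and stem (ratio 0.401, interval 0.342 to 0.470), and miR3630 had 35 and 58 (ratio 0.462, interval 0.295 to 0.715). These 3 families thus had less in root at every bound of their intervals. miR2916 had 3006 reads in root and 3106 in stem (ratio 0.741), and miR6300, with 606 and 493, had an interval of 0.834 to 1.06. miR6478 was higher by 1.32 times in root. miR1511, at 1.71 times, and miR5139, at 1.28 times, share 1 sequence, rgl-miR5139_L-1, whose reads the authors divided between them. That sequence had 2281 reads in root and 1248 in stem, a ratio of 1.3995 (interval 1.306 to 1.501). The ratios of miR1511 and miR5139 thus differ through that division and are not separate measurements, though both are counted among the 33 compared families. miR477 had 160 reads in root and 98.8 in stem, and its interval included 1.

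The compared sequences had 59 distinct seeds, and 7 seeds were shared by 18 sequences. The seed CCAAAGG of both miR393 sequences went with stem and GGAGAAG of both miR164 5′ sequences with root. TGACAGA of 3 miR156 sequences spanned ratios of 0.262 to 0.957, TCCACAG of 3 miR396 sequences 0.459 to 1.28, and TTGGATT of 4 miR159 sequences 0.289 to 1.21. The counts of calls by first base and arm that follow stand beside 25.7% each way over all 70 sequences. T opened 43 sequences, of which 10 were higher in root and 14 in stem. C opened 7, of which 3 were higher in root and none in stem, G opened 11, of which 4 were higher in root and 1 in stem, and A opened 9, of which 1 was higher in root and 3 in stem. By the arm that the authors listed, 9 of 30 sequences on the 5′ arm were higher in root and 8 in stem. On the 3′ arm 8 of 37 were higher in root and 10 in stem. Of 3 listed on both arms, 1 was higher in root and none in stem. The listing does not always match the name, since mtr-miR172c-5p is listed on the 3′ arm. Reads of 21 nt made up 81.7% of the root and 84.6% of the stem table reads, and without miR166 they made up 32.9% and 25.5%.

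The 40 predicted miRNAs, which the authors named from hairpins in ESTs of the plant, were few in reads, with 223 in root and 119 in stem in all. Their summed ratio was 1.44 (1.14 to 1.81), and as a share of the reads outside miR166 this would be lower by 0.40 on the log2 scale. Of the 11 that reached 10 reads, 5 were higher in root and 1 in stem, beside 25.7% each way over all 70 sequences. The 5 lie on ESTs CV163994, CV164108 and CV172499 only, so some are arms of the same hairpin and not separate cases. PC-3p-240808_5 was the one higher in stem, with 2 reads in root and 26 in stem (ratio 0.0589, interval 0.00678 to 0.235).

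Of the 19 precursors with both arms named, 7 had at least 10 reads, and 6 of these had reads on both arms. In 5 of the 6 both arms had more normalized counts in root. The limit of 10 reads bears on this count. CV163994, CV164108, CV165835 and CV165955 had 32, 17, 18 and 13 reads in root and 1, 1, 5 and 5 in stem, so they reached the limit through root. Precursors with few reads that leaned to stem, such as CV167790 with 0 in root and 6 in stem, fell below it. The count is therefore no evidence of a lean to root among the precursors. ESTs are copies of mRNA, and whether the reads of the arms are pieces of the mRNA itself was not tested. The 7 include the hairpin of PC-3p-240808_5, whose 5′ arm had 0 reads in root and 0 in stem, so its arms could not be set against each other. On EST CV171604, PC-3p-115345_10 had 23 reads in root and 20 in stem (ratio 0.881, interval 0.463 to 1.69) while its 5′ partner had 3 and 1. On EST CV172499 the 5′ arm PC-5p-468508_3 had 36 reads in root and 9 in stem (ratio 3.06, interval 1.45 to 7.23), and the 3′ arm PC-3p-294250_4 had 42 and 10 (ratio 3.22, interval 1.59 to 7.19). This hairpin is shown because it gave the most reads of those 5, as the 182 bases from position 184 to 365 on the plus strand of the EST, with both arms in capitals as the authors' table has them. PC-5p-468508_3 differs from the capitals of its arm by G22T, with the EST base first and positions counted from the 5′ end of the arm.
CV172499: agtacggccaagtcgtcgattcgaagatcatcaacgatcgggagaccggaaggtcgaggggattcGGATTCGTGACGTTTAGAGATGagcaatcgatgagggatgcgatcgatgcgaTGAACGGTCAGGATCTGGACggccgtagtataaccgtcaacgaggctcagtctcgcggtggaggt
PC-5p-468508_3: gGATTCGTgacgtttagagatt
PC-3p-294250_4: tGAACGGTcaggatctggac

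On EST CV163994, PC-5p-994633_2 had 13 reads in root and 0 in stem, at least 3.32-fold higher in root against a floor of 3 reads and with a lower bound of 2.33 in the exact interval, and PC-3p-479939_3 had 19 and 1 (ratio 14.55, interval 2.31 to 605). On EST CV164108, PC-3p-296841_4 had 15 reads in root and 1 in stem (ratio 11.5, interval 1.77 to 484), and its 5′ partner had 2 and 0. The arms on CV165835 had 6 and 12 reads in root and 2 and 3 in stem, and those on CV165955 had 5 and 8 in root and 1 and 4 in stem. The direction was thus the same on both arms, but the single arms on these last 2 ESTs were not told apart from a ratio of 1 at this depth.

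**Figure D4:**
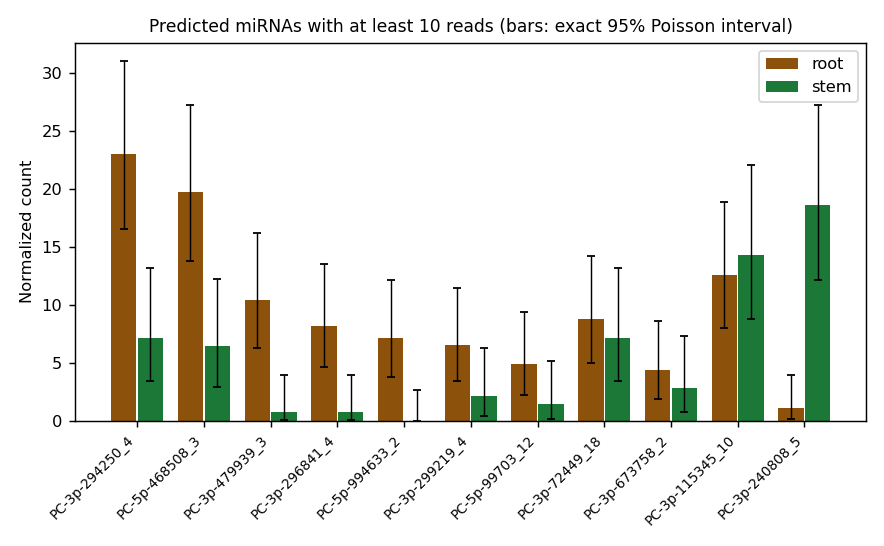
Normalized counts of the 11 predicted miRNAs with at least 10 reads, root (brown, left bar) beside stem (green, right bar), with exact 95% Poisson intervals of the counts. PC-3p-294250_4 and PC-5p-468508_3, the arms of 1 hairpin, are the highest in root, and PC-3p-240808_5 is the only one called higher in stem.

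Few sequences were listed in only 1 of the tissues with more than a handful of reads. Of the 241 sequences, 120 had reads in both, 42 in root alone of the pair, 37 in stem alone and 42 in neither. The median of those in 1 tissue was 1 read, in root as in stem. With at least 10 reads in root and 0 in stem there were 2, ptc-miR171j_L-1R+1_1ss10TC and PC-5p-994633_2, and there was none the other way, where lus-miR169b_R-1 came closest with 0 reads in root and 9.5 in stem. Just outside the limit of 10 reads lay lus-miR169b_R-1 and gma-miR399a_1ss8GT, with 8.73 reads in all, and just inside ppe-miR398b_R-1_1ss2GA with 10 and PC-5p-99703_12 with 11. The 171 sequences below the limit were not compared.

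The degradome of the mixed tissues does not separate root from stem, but it shows which compared miRNAs had cut ends assigned to them. Of the 21 miRNA sequences in that table, 9 were compared, of which 5 were higher in root and 2 in stem, beside 25.7% each way over all 70 sequences. aly-miR858-5p_L-1R+1_1ss5GA had 5 target transcripts, all with 167 raw reads at the site and category 0, the tallest peak on the transcript. Most of them carry the study's annotation as plant MYB proteins. Whether the equal counts are the same reads assigned to similar transcripts was not tested, so the 5 are not taken as separate evidence. aly-miR319a-5p_L-1R-1_1ss19TG had 4 targets with 53 to 128 raw reads and a lowest category of 0. The study's annotation of these targets was calmodulin, a calcium sensor. csi-miR164 and lus-miR164a_R-1 had the same 2 targets with 3 raw reads each and a lowest category of 2. osa-miR5072_L-4_1ss13GA had 5 targets with 1 to 5 raw reads and a lowest category of 3. Of those higher in stem, vvi-miR3630-3p_L-2_1ss21AT had 4 targets with 16 raw reads each (lowest category 2) and tcc-miR530b_R+1 had 2 with 1 each (lowest category 4).

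Root and stem were set beside leaf and flower by the size of the differences, as a description with no test. Over sequences with at least 10 reads in the pair, the median size was 1.14 on the log2 scale for root and stem and 1.49 for leaf and flower, over 70 and 71 sequences. The share of sequences called was nearly equal, at 51.4% for root and stem and 52.1% for leaf and flower. Differences of at least 4-fold were called for 16 sequences between root and stem and for 28 between leaf and flower. Over families the medians were 0.78 and 1.12 for 33 and 36 families.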

How the data were processed

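Small RNA of each tissue was sequenced on an Illumina HiSeq, and groups were taken from the tissue labels. The authors used ACGT101-miR 4.2 to remove adapters, junk and other RNA classes, kept 18 to 25 nt and matched miRBase and ESTs. Their table holds 650 entries, and 6 further lines were left out of the analysis. The reads per entry are estimated counts, because the authors divided a read that matches several entries among them. The authors' normalized count is a signal, the reads times 1 factor per library. In the deposited degradome table (CleaveLand 3.0), the raw reads are a count per cleavage site and the category is a score. The authors' p-values were not used.

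Reads were summed per sequence and per family without rounding. Ratios used the authors' factors and a Clopper-Pearson interval at 95% of the root share of the reads, and ratios of ratios an exact conditional interval on rounded reads, where part of a read counted as 1. With 1 library per tissue no test over replicates was made. The calculation was tested on simulated whole Poisson reads with planted differences. That test does not cover divided reads, PCR copies or differences between plants. The table reads were 5.64% of the clean reads in root and 5.77% in stem.

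Members and lists were chosen with earlier results of these data known. Named are the listed families with 10 reads, the 10 sequences with the highest and the 10 with the lowest ratio among those whose whole interval lay beyond 2-fold, the 10 most abundant of each library, those in 1 tissue only, predicted miRNAs with both arms, and members of families with several sequences. Others are named for their place near a limit or in the degradome. Alternatives covered scaling, the minimum of reads, the call, and what counts as 1 miRNA. Python 3.11.15, numpy 2.4.6, pandas 2.3.3, scipy 1.17.1 and matplotlib 3.10.9 were used.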

Additional observations from a re-analysis of the deposited data

How the results depend on the processing

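With 1 library per tissue, values carry counting error only, and no difference between plants, extractions or library preparations can be judged. No paired analysis was possible because each tissue has 1 library. With the authors' factors 18 sequences were higher in root and 18 in stem, and 7 and 7 families. At a minimum of 50 reads the sequences numbered 11 in root and 11 in stem, of 39 compared. Called at 4-fold, they numbered 9 in root and 7 in stem, and the families 2 and 2. With the whole interval beyond 2-fold there were 10 sequences higher in root, and 4 families higher in stem. An exact binomial test with Benjamini-Hochberg adjustment at 0.01 and no limit on the fold gave 12 families in root and 12 in stem, of which 6 and 7 were among the 7 each. Fewer calls follow from the construction of the stricter calls and the larger minimum. As a share of the reads outside miR166, 3 families were higher in root, all among the 7, because that scale lowers each ratio by 0.40 (log2): miR394, miR408, miR894 and miR5072 dropped under 2-fold, and miR169 and miR396 passed it in stem. With the median family ratio set to 1, miR403 and miR3630 dropped just under 2-fold and miR167 passed it. By the most abundant sequence of each family, miR156 was under 2-fold and miR396 was higher in stem. The other alternatives kept each count within 1.5 times. By names in place of sequences, 17 were higher in root and 18 in stem. No called value could change direction under these scalings, because every shift was smaller than the 2-fold limit of a call.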
